A study of Mus musculus with 12 samples.

Results

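The genes described here are 42 genes of the mitotic cell cycle: those that copy the DNA and those that condense, move and part the chromosomes and split the cell. They were chosen by name, but with earlier results of these data known. The shares of all genes set beside their counts are therefore a description, not independent support. Each of the 42 was read by the rows of the deposited table that the platform annotation gives to that symbol alone, and, where there were several, by the one whose mean over the 12 arrays was highest. In all, 41 of the 42 had such a row, among 19937 genes tested; Ccnb1, which encodes cyclin B1, was not analysed here. They were split into 11 DNA replication members and 30 mitosis members. They were measured in white adipose tissue of 18-week-old male mice on 12 Affymetrix arrays, 3 in each of 4 groups: wild type (WT) and Ahnak knockout (KO) mice, each kept for 12 weeks on regular chow or on a high fat diet (HFD; 60% fat, 20% carbohydrate and 20% protein by the label). Ahnak encodes a very large scaffold protein. The labels name neither the fat depot, the strain nor the knockout allele, so these limits of the mice as a model are unknown.

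In a dividing cell the MCM helicase opens the DNA at replication origins, PCNA holds the polymerases on the template, and ribonucleotide reductase and thymidylate synthase supply the nucleotides. Cyclin-dependent kinase 1 with cyclins A and B then drives the cell into mitosis, where condensins compact the chromosomes, kinesins build the spindle, checkpoint kinases hold the cell until every chromosome is attached, and a contractile ring ends the division. Mature adipocytes are regarded as non-dividing. In adipose tissue the known dividing cells include progenitors, endothelial cells and immune cells, and macrophages are known to proliferate in the fat of obese mice.

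Many of these genes share promoter elements, so the bases just before the start of 5 of them are printed to show both classes: Cdk1 and the kinase gene Plk1 for mitosis, and Mcm2, Mcm5 and Rrm2 for replication. The sequences are RefSeq's for build GRCm38.p6, the 250 bases before the gene's start, read 5′ to 3′ along the gene's own strand: chr10:69352913-69353162 (minus strand), chr7:122159185-122159434 (plus), chr6:88898781-88899030 (minus), chr8:75109259-75109508 (plus) and chr12:24708004-24708253 (plus). Capitals mark every match to CCAAT, the box bound by NF-Y, or its complement ATTGG; to TTTGAA or TTCGAA, forms of the cell cycle genes homology region (CHR), or the complement TTCAAA; and to the E2F motifs TTTCCCGC, TTTCGCGC, TTTGCCGC or TTTGGCGC on either strand.
Cdk1: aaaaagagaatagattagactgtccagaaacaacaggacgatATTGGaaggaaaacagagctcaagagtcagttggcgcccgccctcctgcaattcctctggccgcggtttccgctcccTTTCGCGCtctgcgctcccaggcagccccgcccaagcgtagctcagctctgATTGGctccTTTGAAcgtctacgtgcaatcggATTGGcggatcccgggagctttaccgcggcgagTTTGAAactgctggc
Plk1: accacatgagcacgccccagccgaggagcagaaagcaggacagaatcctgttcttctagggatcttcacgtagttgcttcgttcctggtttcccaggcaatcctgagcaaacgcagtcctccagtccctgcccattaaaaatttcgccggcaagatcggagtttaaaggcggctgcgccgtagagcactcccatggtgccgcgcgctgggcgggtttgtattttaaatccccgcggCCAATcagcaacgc
Mcm2: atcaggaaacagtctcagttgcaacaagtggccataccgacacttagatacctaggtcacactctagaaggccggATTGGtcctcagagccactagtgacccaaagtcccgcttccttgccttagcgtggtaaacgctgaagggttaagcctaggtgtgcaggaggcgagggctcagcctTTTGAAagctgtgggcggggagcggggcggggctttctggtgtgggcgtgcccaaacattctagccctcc
Mcm5: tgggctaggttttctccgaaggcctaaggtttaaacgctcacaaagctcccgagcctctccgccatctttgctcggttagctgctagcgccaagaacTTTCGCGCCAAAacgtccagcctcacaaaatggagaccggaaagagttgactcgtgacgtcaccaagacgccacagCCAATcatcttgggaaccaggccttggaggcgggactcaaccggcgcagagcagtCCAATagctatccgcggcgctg
Rrm2: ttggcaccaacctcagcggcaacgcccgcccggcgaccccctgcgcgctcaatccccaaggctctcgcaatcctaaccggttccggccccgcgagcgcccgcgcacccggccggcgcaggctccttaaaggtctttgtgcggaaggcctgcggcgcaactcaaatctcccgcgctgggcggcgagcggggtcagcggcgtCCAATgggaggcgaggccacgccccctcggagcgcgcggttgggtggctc
The Cdk1 window held 3 CCAAT matches, the nearest beginning 48 bases before the start, 2 CHR matches beginning 71 and 15 bases before it, and 1 E2F match. Mcm5 held 2 CCAAT matches and 2 E2F matches on opposite strands that overlap each other, and Mcm2 held 1 CCAAT and 1 CHR match. In Plk1 and Rrm2 the single match was a CCAAT, 14 and 50 bases before the start.

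Promoter windows were listed for 34 of the 42 members, Ccnb1 included; Foxm1, Ccne2, Dlgap5, Mcm4, Tpx2, Kif20a, Aurkb and Ccna2 had none. A CCAAT match stood in 8 of 9 replication and 21 of 25 mitosis members, against 37.5% of the 27025 genes in the table and 38.8% of those tested on the arrays. More than 1 such match stood in 5 of 9 and 14 of 25, against 11.5% of all genes in the table. A CHR match stood in 2 of 9 replication and 12 of 25 mitosis members, against 19.6% in the table, and an E2F match in 3 of 9 and 2 of 25, against 2.16%. Top2a held the most, with 6 CCAAT and 4 CHR matches, while Melk, Nusap1, Anln and Tyms held none of the 3 motifs. For a gene with several windows the highest count was taken for each motif separately, so its counts may come from different windows. A match is a description of the letters, not a binding site or a cause of the levels below.

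All values below are log2 values of 1 array or differences of group means, 3 arrays a group, on that scale with their standard error (SE). The SE comes from 1 fit of all 12 arrays, which takes the spread of a gene to be equal in the 4 groups. For 39 of the 41 members the spread was in fact largest in WT on HFD. Their SE therefore tends to be too small for comparisons with that group and too large for those without it. A member passed where its adjusted p was under 0.05 by limma, with Benjamini-Hochberg adjustment over all 19937 genes. Values ran from 2.09 to 14.2 over the whole table and array medians from 5.78 to 5.92, and arrays of a group correlated at 0.985 to 0.996 over genes, which are not independent replicates. The labels number the replicates but do not say that each was a separate animal, and they give no batch, so a p-value here speaks only for the spread among these arrays, which may be technical. Ahnak read 9.94, 10.06 and 10.08 in WT on chow and 9.31, 9.27 and 9.42 in KO on chow; on HFD it read 10.27, 9.68 and 10.04 in WT and 9.58, 9.40 and 9.45 in KO. The 6 KO arrays thus lay below the 6 WT arrays, although the difference passed only on HFD (-0.52 ± 0.13, adjusted p = 0.0207 by limma) and not on chow (-0.69 ± 0.13, adjusted p = 0.379). Which part of the gene was removed is not given, so this reading does not measure how much intact transcript was left. Adipoq, which marks adipocytes, read 12.45 to 13.33 over the 12 arrays. Without detection calls in the table, how far any value stood above background is unknown, and values of different genes are not compared with each other.

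On HFD, 34 of the 41 members were lower in KO than in WT and none was higher. The background in the same comparison was 6.85% of all genes lower and 6.65% higher. By class, 29 of 30 mitosis members and 5 of 11 replication members passed, and the median differences were -1.11 and -0.63 where that of all genes was 0.02. Every KO array lay below every WT array for 38 members, 29 of mitosis and 9 of replication, against 13.5% of all genes; the others were Mcm4, Mcm7 and Anln. No test was made of the difference between the classes. These are measurements of whole tissue, in which fewer cycling cells and less RNA of these genes per cell cannot be told apart.

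On chow, none of the 41 members passed between KO and WT in limma, against 0% of all genes, and none had an unadjusted p under 0.05, where 1116 of all genes did. The differences ran from -0.23 (Ncapd2) to 0.26 (Ccne2) with a median of -0.02, and the smallest adjusted p was 0.898. The groups' arrays did not overlap for 2 members, Tyms and Foxm1, both higher in KO, against 11.5% of all genes. The intervals are not narrow: the 95% interval was -0.69 to 0.38 for Mki67 and -0.91 to 0.69 for Bub1, the member with the widest. Their width rests on a spread shared with the HFD arrays. The SD of Mki67 was 0.06 in WT and 0.30 in KO on chow, but 0.62 in WT on HFD. With only the chow arrays in the fit, 0 members had an unadjusted p under 0.05 in limma.

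In WT, 36 of the 41 members were higher on HFD than on chow, against 11.8% of all genes, and none was lower. They were 29 of 30 mitosis members (median 1.27) and 7 of 11 replication members (median 0.69). Every HFD array lay above every chow array for 36 members, against 17.3% of all genes. In KO, none of the 41 passed between HFD and chow, where 2.8% of all genes passed as higher and 3.54% as lower in limma, and none had an unadjusted p under 0.05, where 4547 of all genes did. Their median was 0.11, with a range from -0.26 (Melk) to 0.40 (Kif23), and the smallest adjusted p was 0.256. These tests use a spread shared with the WT arrays. With only the KO arrays in the fit, 9 members had an unadjusted p under 0.05 in limma, 8 of mitosis and 1 of replication. Still 0 passed, with a smallest adjusted p of 0.0753. The KO arrays on HFD lay above all KO arrays on chow for 10 members, against 15.1% of all genes, and below them for 4, against 13.7%. The KO and WT comparison on HFD and the diet comparison in WT share the 3 WT arrays on HFD, so they are not independent of each other.

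**Figure D1:**
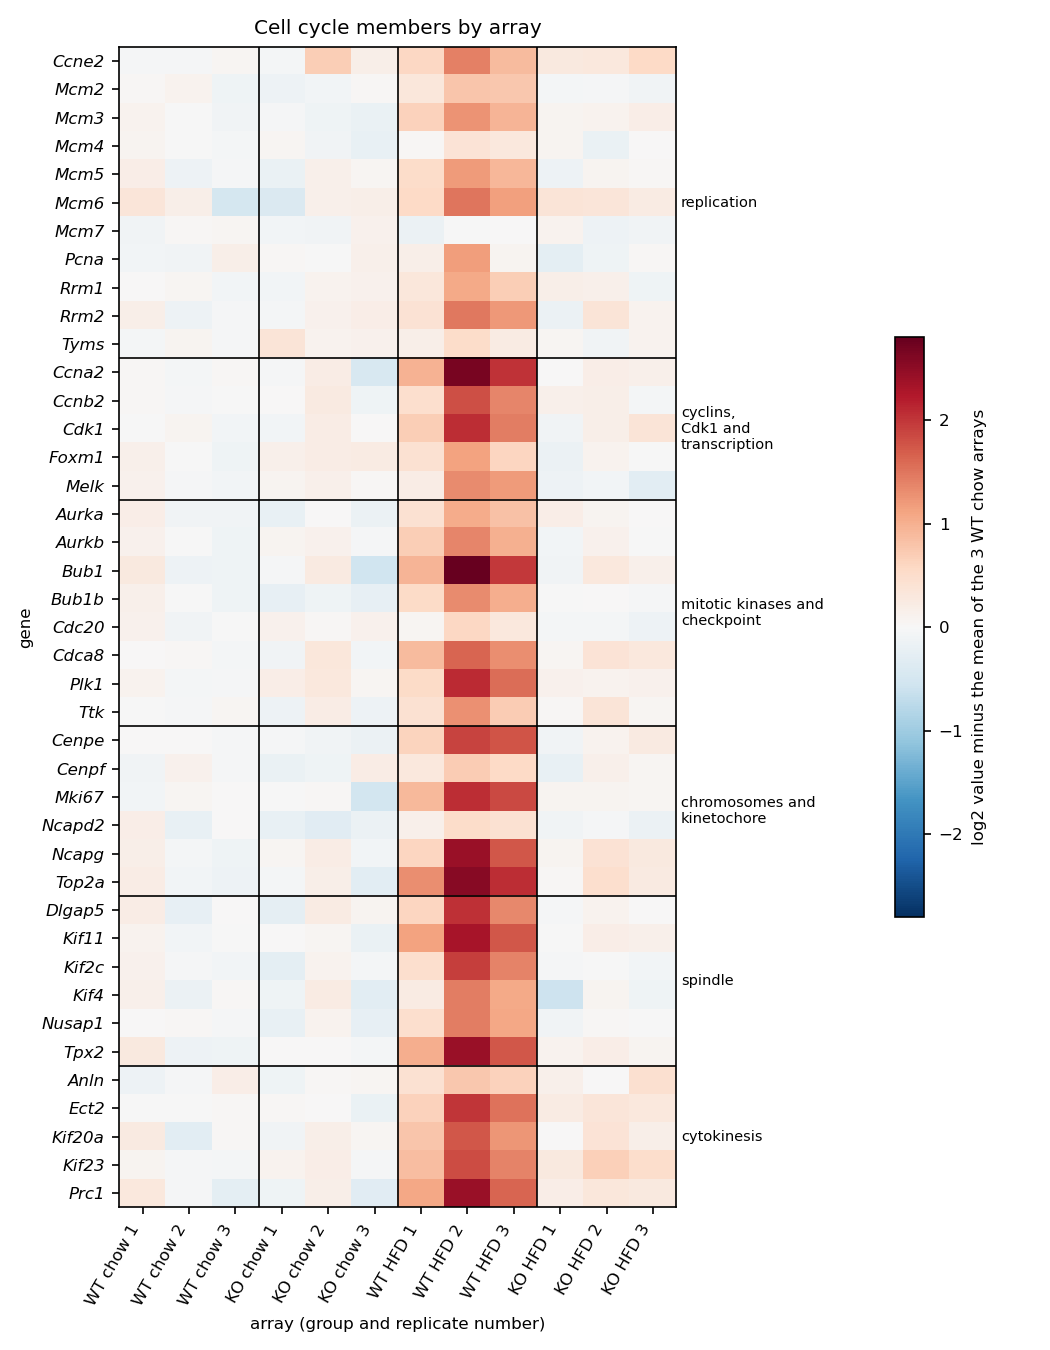
Log2 value of each of the 41 members (rows, in role groups parted by lines) on each of the 12 arrays (columns), minus the gene's mean over the 3 WT chow arrays; red is higher and blue lower, on the colour scale at right. The WT HFD arrays are red for nearly all members, with replicate 2 the deepest for 40 of 41 members, and Mcm7 stays near 0 on every array.

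The test of the difference itself, the interaction of genotype and diet, did not call any member in limma, where 0.00502% of all genes passed as negative. Of the 41 members 40 had a negative interaction, as had 48.7% of all genes, and 35 had an unadjusted p under 0.05, as had 3496 of the 19937 genes. The members' median was -1.02. The smallest adjusted p was that of Aurkb, at 0.0619 for an interaction of -1.06 ± 0.20. A genotype difference that depends on diet was therefore not established for any single member with all 12 arrays. Without WT HFD replicate 1 the interaction passed for 34 members, 7 of replication and 27 of mitosis, against 5.79% of all genes. Replicate 1 was the lowest WT HFD array for 40 of the 41 members. Leaving it out raises their WT HFD mean and narrows that group's range, so this count is not support for an interaction. Without any other single array 0 members passed.

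The 5 replication members that were lower in KO on HFD were Mcm2, Mcm3 and Mcm5 of the MCM helicase and Rrm1 and Rrm2, the large and small subunits of ribonucleotide reductase. Mcm2 read 7.85, 8.32 and 8.30 in WT on HFD and 7.50, 7.51 and 7.44 in KO on HFD, against 7.57, 7.65 and 7.42 in WT and 7.40, 7.47 and 7.58 in KO on chow. The WT HFD arrays stood above all the others. The genotype difference on HFD was -0.67 ± 0.12 (adjusted p = 0.00697 by limma) and the WT diet difference 0.61 ± 0.12 (adjusted p = 0.00428). Rrm2 had the largest difference of the class. It read 6.71, 7.79 and 7.54 in WT on HFD and 6.15, 6.68 and 6.42 in KO on HFD, with 6.49, 6.18 and 6.28 in WT and 6.26, 6.44 and 6.49 in KO on chow. The lowest WT HFD array was thus only just above the highest KO HFD array. The difference was -0.93 ± 0.23 (adjusted p = 0.0237 by limma).

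The other 6 replication members did not pass between KO and WT on HFD. Mcm7, a further helicase subunit, had the smallest difference of all members. It read 8.04, 8.19 and 8.20 in WT on HFD and 8.29, 8.06 and 8.09 in KO on HFD, while the chow arrays read 8.09 to 8.31, so the 4 groups overlapped. Its genotype difference on HFD was 0.00 ± 0.09, with a 95% interval of -0.19 to 0.20, which leaves out the differences of Mcm2, Mcm3 and Mcm5. Mcm6 differed by -0.75 ± 0.26 (adjusted p = 0.0775) and Mcm4 by -0.28 ± 0.11 (adjusted p = 0.117 by limma). Ccne2, which encodes cyclin E2 of the entry into replication, differed by -0.59 ± 0.21 (adjusted p = 0.0904), and Tyms, the thymidylate synthase, by -0.28 ± 0.11 (adjusted p = 0.106 by limma). Mcm6 and Ccne2 did pass between HFD and chow in WT (1.06 ± 0.26 and 0.96 ± 0.21), while Mcm4, Mcm7, Pcna and Tyms did not.

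Pcna, the sliding clamp, had 2 rows with the same accessions, and RefSeq lists 2 Pcna pseudogenes, so which transcripts each row reads is uncertain. The row with the higher mean, which stands for the gene, read 10.68, 11.70 and 10.60 in WT on HFD and 10.25, 10.40 and 10.57 in KO on HFD. On chow it read 10.45, 10.43 and 10.69 in WT and 10.56, 10.52 and 10.67 in KO, so 1 WT HFD array stood far above the other 11. Its genotype difference on HFD was -0.59 ± 0.23 (adjusted p = 0.121 by limma). The other row read 10.01, 11.00 and 10.54 in WT on HFD and 9.85, 9.85 and 9.75 in KO on HFD, with 9.60 to 9.78 on the chow arrays. There, all 3 WT HFD arrays stood above the rest, and the difference of means was -0.70. With the mean of both rows the difference was -0.64 and passed (adjusted p = 0.0465 by limma). Tyms, Ccnb2 and Kif4 each have 1 pseudogene entry as well, so their rows share this doubt.

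All 5 members in the group of cyclins, Cdk1 and transcription were lower in KO on HFD and higher on HFD in WT. Cdk1, the kinase that triggers mitosis, read 6.72, 8.10 and 7.46 in WT on HFD and 5.93, 6.20 and 6.38 in KO on HFD. On chow it read 6.03, 6.10 and 5.96 in WT and 5.95, 6.23 and 6.05 in KO, so that only the WT HFD arrays stood apart. The genotype difference on HFD was -1.26 ± 0.26 (adjusted p = 0.0124 by limma), a 2.39-fold lower level. Ccna2, which encodes the cyclin A2 partner of Cdk1 and Cdk2, had the largest difference of the group. It read 6.99, 8.68 and 8.03 in WT on HFD and 6.03, 6.20 and 6.15 in KO on HFD, while the chow arrays read 6.05, 5.95 and 6.03 in WT and 5.99, 6.22 and 5.56 in KO. The difference was -1.77 ± 0.32 (adjusted p = 0.00788 by limma) or 3.42-fold. Foxm1, a transcription factor of the G2 and M phase genes, had the smallest difference. It read 5.85, 6.55 and 6.03 in WT on HFD and 5.26, 5.53 and 5.42 in KO on HFD, and on chow 5.56, 5.41 and 5.30 in WT and 5.56, 5.63 and 5.64 in KO. The KO arrays on HFD thus lay below those on chow, and the genotype difference on HFD was -0.74 ± 0.15 (adjusted p = 0.0116 by limma). Ccnb2, the cyclin B2 gene, differed by -1.13 ± 0.25 and Melk, a mitotic kinase gene, by -1.08 ± 0.23.

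The 8 mitotic kinase and checkpoint members were all lower in KO on HFD, and 7 of them were higher on HFD in WT. Bub1, a kinase of the spindle checkpoint, had the largest genotype difference of all members. It read 5.62, 7.44 and 6.64 in WT on HFD and 4.55, 4.95 and 4.80 in KO on HFD, against 4.92, 4.52 and 4.53 in WT and 4.62, 4.91 and 4.10 in KO on chow. The KO HFD arrays fell among the chow arrays but for 1, at 4.95. The difference was -1.79 ± 0.36 (adjusted p = 0.0113 by limma), a 3.47-fold lower level. Cdc20, the activator of the anaphase-promoting complex, had the smallest difference of the group. It read 6.28, 6.80 and 6.52 in WT on HFD and 6.18, 6.17 and 6.09 in KO on HFD, with 6.34, 6.13 and 6.22 in WT and 6.35, 6.27 and 6.35 in KO on chow. The lowest WT HFD array was inside the chow range. The genotype difference was -0.39 ± 0.11 (adjusted p = 0.0424 by limma), and Cdc20 was the only mitosis member that did not pass between HFD and chow in WT (0.30 ± 0.11, adjusted p = 0.0732). Aurkb and Cdca8, of the chromosomal passenger complex, differed by -1.0 ± 0.14 and -1.03 ± 0.17. Plk1, the polo-like kinase, differed by -1.29 ± 0.28, Aurka, the centrosome kinase, by -0.67 ± 0.14, and the checkpoint kinases Bub1b and Ttk by -0.96 ± 0.15 and -0.65 ± 0.18.

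The 6 chromosome and kinetochore members were lower in KO on HFD and higher on HFD in WT. Mki67, which encodes the proliferation antigen Ki-67 of the chromosome surface, read 6.54, 7.71 and 7.47 in WT on HFD and 5.71, 5.70 and 5.68 in KO on HFD. On chow it read 5.56, 5.69 and 5.64 in WT and 5.63, 5.66 and 5.13 in KO. The KO HFD arrays thus lay close together at the top of the chow range, and the WT HFD arrays stood well above both. In WT the diet difference was 1.61 ± 0.24 (adjusted p = 0.00167 by limma), a 3.05-fold rise; in KO it was 0.23 ± 0.24 with a 95% interval of -0.31 to 0.76.

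Top2a, the topoisomerase that untangles chromosomes, read 7.33, 8.58 and 8.09 in WT on HFD and 6.06, 6.50 and 6.28 in KO on HFD, with 6.24, 5.95 and 5.90 in WT and 5.97, 6.19 and 5.72 in KO on chow. Its WT diet difference of 1.97 ± 0.26 was the largest of all members (adjusted p = 0.00102 by limma). A second Top2a row with a mean of 2.85, matched to a different accession, read 0.24 higher in KO than in WT on HFD. Ncapd2, a condensin subunit, had the smallest genotype difference of the group. It read 7.41, 7.79 and 7.71 in WT on HFD and 7.18, 7.25 and 7.13 in KO on HFD, and on chow 7.47, 7.08 and 7.29 in WT and 7.07, 6.97 and 7.12 in KO. Here 1 WT chow array lay above the lowest WT HFD array, and the genotype difference on HFD was -0.45 ± 0.11 (adjusted p = 0.0246 by limma). Ncapg, also of condensin, differed by -1.34 ± 0.34, and the kinetochore genes Cenpe and Cenpf by -1.35 ± 0.26 and -0.54 ± 0.14.

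The 6 spindle members all moved in the same directions. Kif11, the kinesin that pushes the spindle poles apart, read 6.41, 7.61 and 7.04 in WT on HFD and 5.29, 5.49 and 5.43 in KO on HFD, against 5.39, 5.21 and 5.27 in WT and 5.30, 5.35 and 5.11 in KO on chow. Its genotype difference on HFD was -1.62 ± 0.22 and shared with Aurkb the smallest adjusted p among the members, 0.00444 by limma. Nusap1, a microtubule-bundling protein, had the smallest difference of this group. It read 5.75, 6.71 and 6.37 in WT on HFD and 5.18, 5.31 and 5.28 in KO on HFD, with 5.29, 5.30 and 5.24 in WT and 5.07, 5.38 and 5.04 in KO on chow. The difference was -1.02 ± 0.19 (adjusted p = 0.00821 by limma), or 2.03-fold. The spindle assembly factor Tpx2 differed by -1.61 ± 0.26, the microtubule depolymerase Kif2c by -1.30 ± 0.27, the chromokinesin Kif4 by -1.12 ± 0.27 and the spindle protein Dlgap5 by -1.31 ± 0.28.

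Of the 5 cytokinesis members 4 were lower in KO on HFD, and all 5 were higher on HFD in WT. Prc1, which bundles the midzone microtubules, read 6.09, 7.43 and 6.64 in WT on HFD and 5.19, 5.31 and 5.28 in KO on HFD. On chow it read 5.31, 4.97 and 4.74 in WT and 4.89, 5.18 and 4.69 in KO, so the KO HFD arrays reached the top of the chow range. The genotype difference on HFD was -1.46 ± 0.27 (adjusted p = 0.00841 by limma). Anln, the ring scaffold anillin, was the exception. It read 7.62, 7.93 and 7.84 in WT on HFD and 7.34, 7.21 and 7.65 in KO on HFD, so that 1 KO array overlapped the WT range, with 7.04, 7.16 and 7.36 in WT and 7.07, 7.22 and 7.25 in KO on chow. Its difference was -0.40 ± 0.13 (adjusted p = 0.0594 by limma). The midzone kinesins Kif20a and Kif23 differed by -1.07 ± 0.21 and -0.88 ± 0.20, and Ect2, which activates RhoA at the cleavage furrow, by -1.10 ± 0.25. Kif23 and Ect2 were the 2 members whose KO HFD arrays stood above all 6 chow arrays, as did those of 8.74% of all genes.

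**Figure D2:**
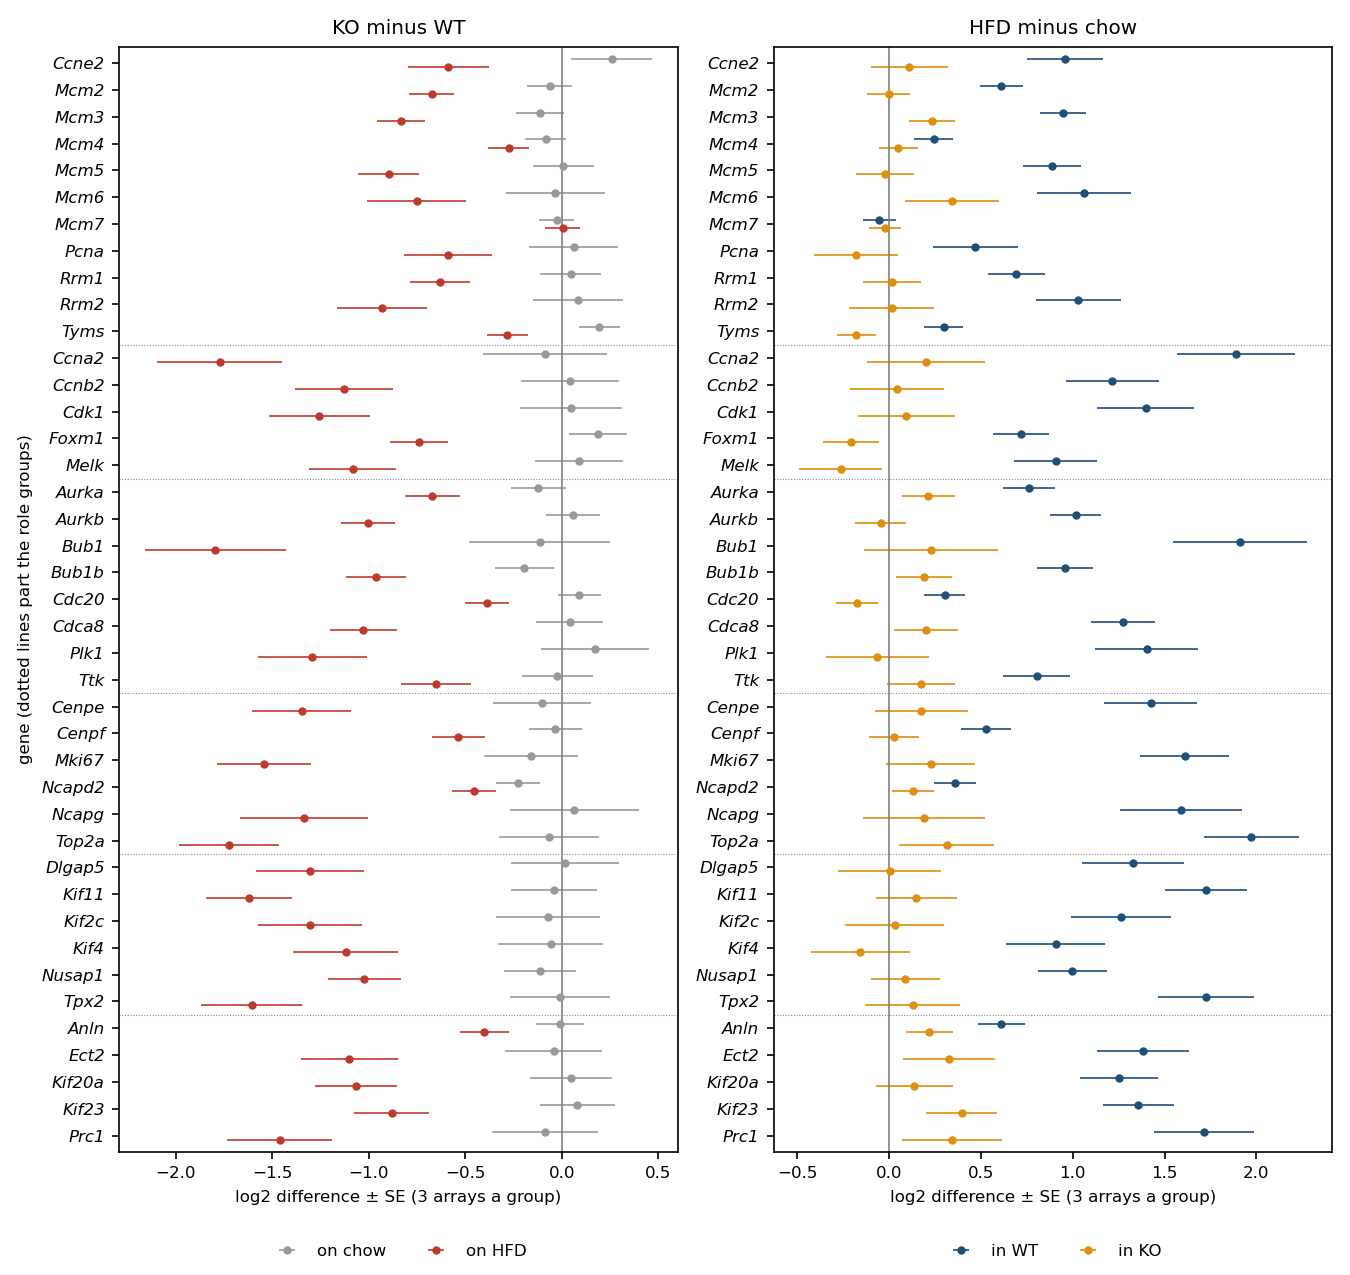
Differences of group means for each of the 41 members on a log2 scale, with bars of 1 SE and 3 arrays a group: KO minus WT at left (grey on chow, red on HFD) and HFD minus chow at right (blue in WT, orange in KO). The red points lie between -1.79 and 0.00, the grey ones between -0.23 and 0.26, and in KO the diet differences lie between -0.26 and 0.40.

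The KO HFD arrays overlapped the range of the WT chow arrays for 35 of the 41 members, against 72.6% of all genes. They lay wholly within the range of the 6 chow arrays for 15, against 30.3% of all genes, so for both counts many genes outside the members did the same. The WT HFD arrays stood above all 9 other arrays for 32 members, 26 of mitosis and 6 of replication, against 8.81% of all genes.

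The WT HFD arrays also differed among themselves. Their SD was the largest of the 4 groups for 39 of the 41 members, against 31.9% of all genes; the exceptions were Mcm7 and Anln. Replicate 2 was the highest of the 3 for 40 members and replicate 1 the lowest for 40, the exceptions being Mcm7 and Pcna. The mean log2 value of the mitosis members was 6.20, 7.29 and 6.86 on the 3 WT HFD arrays, 5.57 to 5.75 on the KO HFD arrays and 5.46 to 5.68 on the 6 chow arrays. For the replication members it was 7.79, 8.44 and 8.12 on the WT HFD arrays, 7.51 to 7.55 on the KO HFD arrays and 7.41 to 7.55 on chow.

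The counts of members lower in KO on HFD moved with the arrays. The count was 38 without WT HFD replicate 1, 26 without replicate 2, 17 without replicate 3 and 18 without KO HFD replicate 1, and 15 members passed whichever of the 6 HFD arrays was left out; the chow arrays were not left out here. With only the 6 HFD arrays in the fit none passed, with adjusted p from 0.0553 upwards, although 39 members kept an unadjusted p under 0.05; over all genes 4 then passed.

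Most macrophage markers moved with the members. Of 16 such markers 12 were lower in KO on HFD (median -1.25), against 6.85% of all genes, and none was higher. In WT 13 were higher on HFD (median 1.63), against 11.8% of all genes. Cd163 and Lyve1 had the opposite sign in both comparisons, and neither passed. Cd163 had a mean of 10.13 in WT on HFD, 10.41 in KO on HFD and 10.63 in WT on chow. For Lyve1 these means were 10.26, 10.49 and 10.44. None of the 16 markers passed in limma in KO between the diets or between genotypes on chow, with 1 marker at an unadjusted p under 0.05 in each. Their summed linear level was 24740 to 55570 on the WT HFD arrays, 13990 to 14610 on the KO HFD arrays, 13070 to 16520 in WT on chow and 10990 to 13620 in KO on chow. Within WT on HFD, replicate 2 was the highest array for 14 of the 16 and replicate 1 the lowest for 14, the same order as the members'. How often all genes took this order was not counted. Replicate 2 was also the lowest WT HFD array for 9 of 9 endothelial markers and the highest for 5 of 8 stromal progenitor markers. Itgax, found on dendritic cells and on macrophages of obese fat, read 8.96, 11.31 and 10.61 in WT on HFD and 6.20, 6.60 and 6.99 in KO on HFD. Its lowest value on any array was 5.83, in KO on chow. On chow the array order differed between the groups. In WT replicate 1 was the highest array for 27 of the 41 members and for 11 of the 16 markers. In KO replicate 2 was the highest for 25 members and the lowest for 10 of the markers. The part of macrophages in the members' result was not tested.

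Adipocyte markers went the other way. Of 11 markers, 4 were higher and 1 lower in KO on HFD, and all 11 had their lowest WT HFD value on replicate 2. Their summed linear level was 53410 to 74070 in WT on HFD, 76700 to 79070 in KO on HFD, 73420 to 76200 in WT on chow and 69890 to 77210 in KO on chow. Between KO and WT on HFD, 0 of 10 T and NK cell markers passed in limma (2 at an unadjusted p under 0.05), 1 of 7 B cell markers was lower (summed level 251.5 to 390.0 in WT and 255.7 to 286.6 in KO on HFD), and 1 of 6 dendritic cell, 2 of 8 mast cell and granulocyte, 2 of 8 stromal progenitor, 1 of 7 smooth muscle and pericyte and 1 of 4 epididymal markers were lower. Of 9 endothelial markers 1 was higher, and 0 of 7 mesothelial markers passed, or had an unadjusted p under 0.05, in limma. Of all genes 6.85% were lower and 6.65% higher in this comparison. In lists this short a count of 1 or 2 is not read as a result about those cells. The summed endothelial level was 4370 to 7434 in WT and 7447 to 8087 in KO on HFD, and that of stromal progenitors 15650 to 18690 and 15800 to 16840. Which of these cells the members' transcripts came from was not tested.

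**Figure D3:**
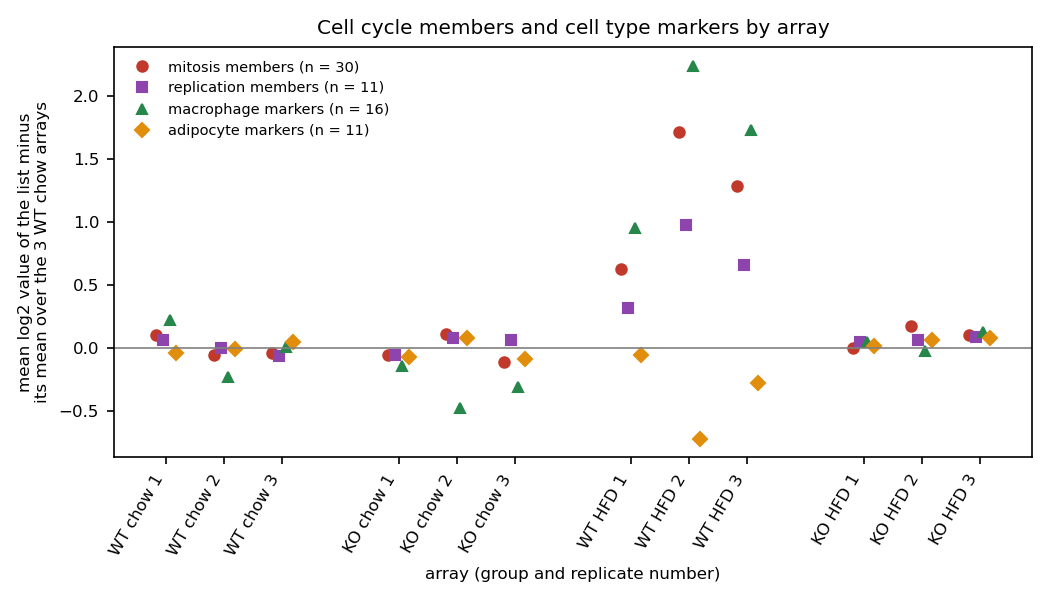
Mean log2 value of the 30 mitosis members, the 11 replication members, 16 macrophage markers and 11 adipocyte markers on each of the 12 arrays, minus the list's mean over the 3 WT chow arrays. On the WT HFD arrays the mitosis members, replication members and macrophage markers are lowest on replicate 1 and highest on replicate 2, and the adipocyte markers are lowest on replicate 2.

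Other genes of the cycle were read from 4 lists. Of 75 such genes measured, 32 were lower and 4 higher in KO on HFD, against 6.85% and 6.65% of all genes. In WT 37 were higher and 3 lower on HFD than on chow, against 11.8% and 12.3% of all genes. None passed in limma in KO between the diets, on chow between genotypes, or in the interaction. There 6, 6 and 42 had an unadjusted p under 0.05, as had 4547, 1116 and 3496 of the 19937 genes. Among 19 other replication genes 9 were lower in KO on HFD. The largest falls were those of Uhrf1, which reads hemimethylated DNA (-1.0 ± 0.19), the licensing factor Cdt1 (-0.99 ± 0.18) and the chromatin assembly subunit Chaf1b (-0.88 ± 0.22), while the loader Cdc6 differed by -0.33 ± 0.16 and did not pass (adjusted p = 0.207 by limma).

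Among 26 other mitosis genes 18 were lower and 1 higher. The kinetochore genes Spc25 and Nuf2 fell by 2.16 ± 0.27 and 1.67 ± 0.32 on the log2 scale, and Hmmr, a spindle protein, by 1.27 ± 0.25. Birc5, the survivin gene of the passenger complex, differed by -0.82 ± 0.23 (adjusted p = 0.0356 by limma). Spc25 read 7.30, 8.70 and 8.34 in WT on HFD and 5.79, 6.09 and 5.98 in KO on HFD, a larger gap than that of any of the 41 members. Pttg1, which encodes securin, the inhibitor of separase, was the exception. It read 7.99, 7.58 and 7.93 in WT on HFD and 8.37, 8.20 and 8.32 in KO on HFD, with 8.16 to 8.39 on the chow arrays, so the WT HFD arrays were the lowest. It was 0.46 ± 0.10 higher in KO on HFD (adjusted p = 0.014 by limma) and -0.40 ± 0.10 on HFD against chow in WT (adjusted p = 0.0149).

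Among 15 G1 drivers and E2F factors 5 were lower in KO on HFD, against 6.85% of all genes, and none was higher. They were Cdk6, a cyclin D kinase (-1.09 ± 0.27), E2f8 (-0.62 ± 0.14), E2f1 (-0.52 ± 0.12, adjusted p = 0.0161 by limma), E2f2 and E2f7 (both -0.33). The cyclin D1 gene Ccnd1 differed by -0.41 ± 0.23, with a 95% interval of -0.91 to 0.10 (adjusted p = 0.304 by limma).

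Among 15 inhibitors and pocket proteins 3 were higher in KO on HFD, against 6.65% of all genes, and none was lower. All 3 encode inhibitors of cyclin-dependent kinases: Cdkn2c (p18), Cdkn1c (p57) and Cdkn1b (p27). Cdkn2c read 10.53, 9.54 and 10.25 in WT on HFD and 10.83, 10.90 and 10.68 in KO on HFD, and 11.01 to 11.41 on the chow arrays. The WT HFD arrays were the lowest and the KO HFD arrays lay between them and chow. It was 0.70 ± 0.20 higher in KO on HFD (adjusted p = 0.04 by limma) and fell by 1.05 ± 0.20 on HFD in WT (adjusted p = 0.00418). Cdkn1c was 0.66 ± 0.13 higher in KO on HFD (adjusted p = 0.0105 by limma) and fell by 0.55 ± 0.13 on HFD in WT. On chow its KO arrays, at 9.13 to 9.44, already lay above its WT arrays, at 8.87 to 9.07. That difference of 0.35 did not pass. Cdkn1b was 0.44 ± 0.08 higher (adjusted p = 0.00871 by limma), and in WT it differed between the diets by -0.18 ± 0.08, which did not pass. Its chow arrays read 8.63 to 8.73 in KO and 8.45 to 8.66 in WT. Between genotypes on chow none of the 15 passed, but 5 had an unadjusted p under 0.05 in limma, as had 1116 of the 19937 genes. There the KO arrays lay wholly above the WT arrays for 4 of the 15 and wholly below for 2. For all genes the 2 directions together made 11.5%. Cdkn1a, the p21 gene, was not analysed here.

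**Figure D4:**
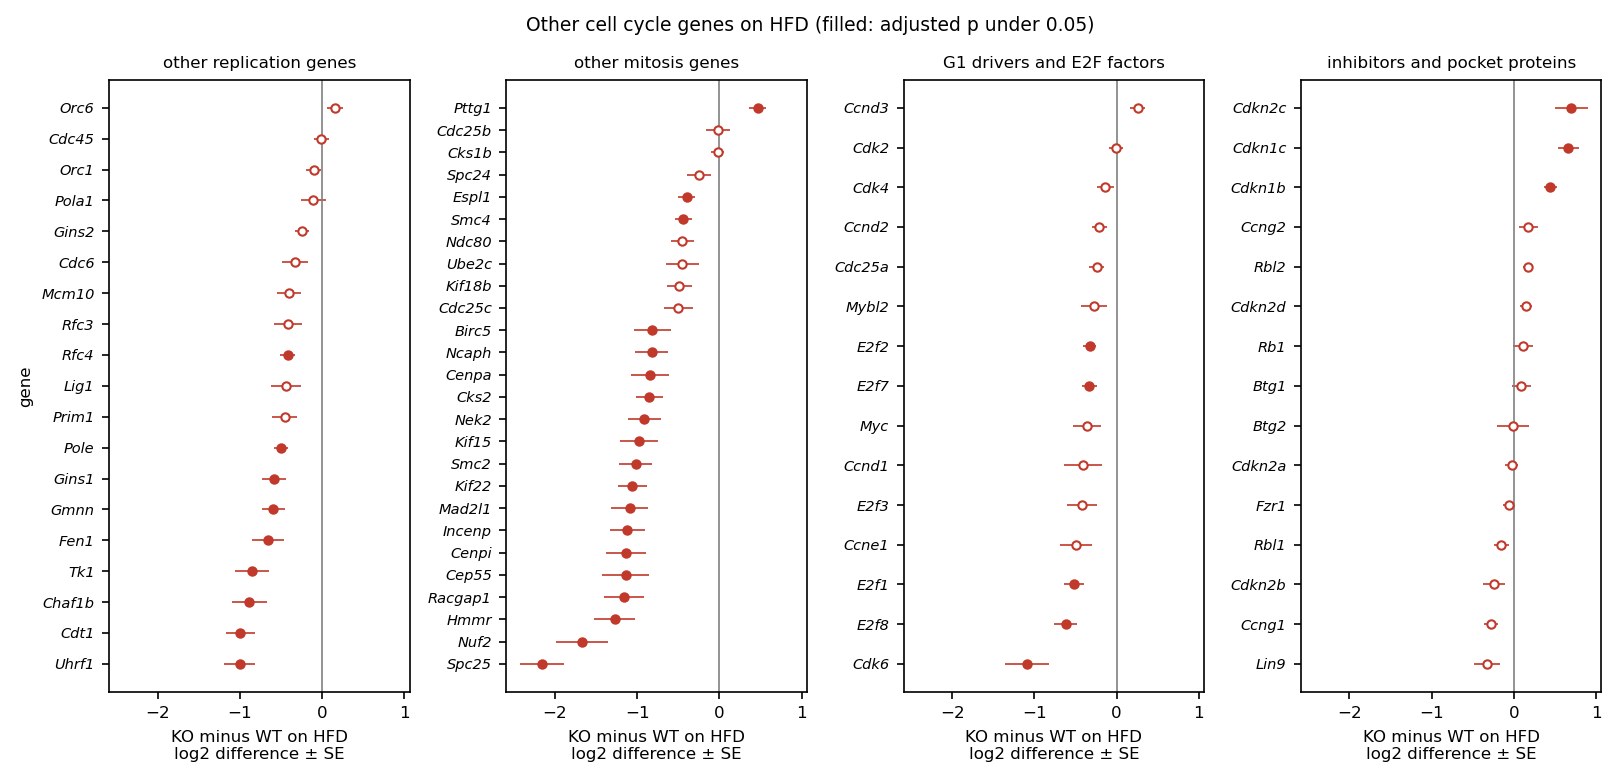
Difference KO minus WT on HFD on a log2 scale, with bars of 1 SE and 3 arrays a group, for the 75 other cell cycle genes in 4 lists; filled points passed at an adjusted p under 0.05 and open points did not. Filled points lie left of 0 in the first 3 lists, except Pttg1 at 0.46, and right of 0 among the inhibitors.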

How the data were processed

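Values were 1 log2 intensity per probe set for each of 12 arrays; the base was inferred from the range of the values. The authors deposited these log2 values in 1 table of 34760 rows. Per the labels' protocols, RNA was amplified and biotin-labelled as whole-transcript sense targets. The submitters' processing notes name affy without a version; the steps of background correction, probe summarization and normalization were not given in the sources used here. Arrays had been scaled to each other (75th percentiles 8.09 to 8.18).

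Rows were named through the platform annotation: 21640 carried 1 symbol, 1321 several and 11799 none. The highest-mean row stood for each of 19937 genes, unfiltered. Samples were grouped by their titles. All 12 arrays entered 1 linear model with a mean per group, in limma 3.58.1 (R 4.3.3, 8 residual degrees of freedom, eBayes), with two-sided tests and Benjamini-Hochberg adjustment over all genes; intervals are 95%. The fit was tested on data simulated for KO against WT on HFD, with independent normal noise and 1 SD per gene for all groups. It recovered 79% of genes changed by 0.75 and 98% of those changed by 1.5 (log2), with 7 false calls. The members spread most in WT on HFD for 39 of 41 and moved together over those arrays, so these figures need not hold for them. The number of arrays limits the precision.

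The members and the lists (4 of other cell cycle genes, 11 of cell type markers) were chosen with earlier results of these data known. Values on every array are given for Mki67, Top2a, Cdk1, Pcna and Mcm2 and for the members of each role group with the largest and the smallest KO to WT difference on HFD; members that did not pass, the 3 largest rises and falls of each other list that passed, and Ccnd1, Cdkn1a, Cdkn1b, Cdkn2c, E2f1, Birc5 and Cdc6 are named. Alternatives were quantile normalization, leaving out the dimmest 25% of genes, the mean of a gene's rows, only the compared groups, a trended and robust eBayes, the replicate number as a block, and each array left out.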

Additional observations from a re-analysis of the deposited data

How the results depend on the processing

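The count of members lower in KO on HFD, 34 in limma, was 32 to 35 under quantile normalization, without the dimmest 25% of genes (38 members tested), with the mean of rows, with a trended and robust eBayes and with the replicate block. It was 0 with the compared groups only, for replication and mitosis members alike (0 and 0), in a fit with 6 arrays in place of 12, where 39 members had an unadjusted p under 0.05 and 4 genes passed in all. Leaving out 1 array of the compared groups gave 17 to 38 in all, 3 to 8 of 11 replication members (3 without WT HFD replicates 2 or 3 or KO HFD replicates 1 or 3) and 14 to 30 of 30 mitosis members (14 without WT HFD replicate 3, 15 when KO HFD replicate 1 was left out). The share of all genes lower in KO then ran from 2.79% to 9.74%. The count higher on HFD in WT, 36, was 32 to 38 under the other settings and 32 to 39 with 1 array of those groups left out. Of all genes 7.84% to 16% were higher under the other settings and 7.86% to 13% with 1 array left out. The counts for the interaction stayed at 0, and with 1 array left out ran from 0 to 34 in all, 0 to 7 for replication and 0 to 27 for mitosis members, above 0 only without WT HFD replicate 1. In that fit 5.79% of all genes passed as negative. The counts in KO between diets and on chow between genotypes were 0 in every alternative run. With the compared groups only, 9 members had an unadjusted p under 0.05 in KO between diets, and 0 did on chow between genotypes. Same-numbered arrays did not deviate together: 4 of 18 pairs correlated above 0.1 and 2 of 12 arrays correlated best with their own number, so the numbers do not pair the samples. With the replicate block 34 members passed between KO and WT on HFD and 35 between diets in WT, and 2325 genes in all in place of 2691. No member with a call changed sign under any alternative run. Single members near the threshold changed sides: Pcna passed on HFD with the mean of its rows (adjusted p = 0.0465 by limma), Anln without dim genes (adjusted p = 0.0493) and with the replicate block (adjusted p = 0.0345), and Cdc20 did not pass with the replicate block (adjusted p = 0.0739). Between diets in WT, Tyms and Cdc20 passed with quantile normalization and Pcna with the mean of its rows, and Ncapd2 did not pass with the replicate block.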
